A study of Homo sapiens with 12 samples.

Results

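The cytosolic and mitochondrial heat shock genes described here were 10 genes chosen by name: HSPA8, HSPH1, DNAJA1, DNAJB1, HSP90AA1, HSP90AB1, HSPB1, HSPD1, HSPE1 and BAG3. Each gene was read from the probe set that carried its symbol alone and had the highest mean over the 12 arrays. Such a probe set existed for 9 of the 10 genes. All 4 probe sets of HSPA8, the constitutive cytosolic HSP70, also carried other symbols, so HSPA8 was given no value. BAG3 lay below the floor of 4 on the log2 scale on every array, which left 8 genes to test among 10561 genes past that floor on at least 2 arrays, of 19775 genes with such a probe set.

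RNA was measured on Affymetrix U133 Plus 2 arrays in SEM-K2 and RS4:11, established cell lines of human acute lymphoblastic leukaemia with a fusion of MLL (KMT2A) and AF4 (AFF1). Each line was held for 6 h with vehicle, with obatoclax at its EC50 or with obatoclax at 3xEC50, where the EC50 is the concentration that gave 50% of the maximal effect over 72 h. Obatoclax is a small molecule made to bind antiapoptotic proteins of the BCL2 family. The 6 groups held 2 biologic replicates each. The sources used here give neither the concentrations behind these doses nor the makeup of the vehicle. Each line stands for 1 leukaemia, and no label ties a biologic replicate to its own culture or day, so the p-values measure only how much these samples varied.

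Heat shock proteins are chaperones that hold or refold unfolded proteins. HSP70 proteins work with J domain partners, which bring them clients and stimulate their ATPase, and with exchange factors such as HSP110, which release the bound nucleotide. HSP90 takes partly folded clients such as kinases and transcription factors, small heat shock proteins hold unfolded proteins without ATP, and the HSP60 and HSP10 pair folds proteins imported into the mitochondrial matrix. When unfolded protein builds up in the cytosol, the transcription factor HSF1 forms trimers and binds heat shock elements, repeats of the block GAA in alternating orientation. Its targets include most of the genes named above, so their transcripts serve as a readout of that response.

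The heat shock elements in the windows before the start sites of these genes are printed here because HSF1 binds such elements and several of these genes carry them. RefSeq promoter windows of the assembly GRCh38.p14 run 250 bases before to 50 bases after each annotated start, and all 10 genes matched, with 16 windows. The motifs were searched on both strands as 2 blocks, GAANNTTC or TTCNNGAA, and as 3 blocks, GAANNTTCNNGAA or TTCNNGAANNTTC, each of which contains the shorter forms. A match with 2 blocks was present in 7 of the 10 genes, against 16.2% of 27305 genes in the table. A match with 3 blocks was present in 5 of the 10 genes (HSPA8, DNAJA1, HSP90AA1, HSP90AB1 and HSPD1), against 0.608% of all genes. HSPH1, HSPE1 and BAG3 had neither form in these windows, which says only that these letters are not in these bases. The sequence of HSP90AA1 stands for the genes with 3 blocks, and those of DNAJB1 and HSPB1 are shown because both differed between the lines below. Each is the 250 bases before a start site, 5′ to 3′ on the strand of the gene, with the matched blocks in capitals. The HSP90AA1 stretch is chr14:102087045-102087294 on the minus strand, the DNAJB1 stretch chr19:14518398-14518647 on the minus strand and the HSPB1 stretch chr7:76302423-76302672 on the plus strand.
HSP90AA1: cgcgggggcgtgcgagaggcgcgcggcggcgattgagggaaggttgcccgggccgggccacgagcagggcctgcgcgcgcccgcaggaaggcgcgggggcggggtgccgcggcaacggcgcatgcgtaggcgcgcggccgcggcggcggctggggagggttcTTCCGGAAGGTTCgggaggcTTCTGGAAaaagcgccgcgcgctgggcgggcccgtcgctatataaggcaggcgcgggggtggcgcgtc
DNAJB1: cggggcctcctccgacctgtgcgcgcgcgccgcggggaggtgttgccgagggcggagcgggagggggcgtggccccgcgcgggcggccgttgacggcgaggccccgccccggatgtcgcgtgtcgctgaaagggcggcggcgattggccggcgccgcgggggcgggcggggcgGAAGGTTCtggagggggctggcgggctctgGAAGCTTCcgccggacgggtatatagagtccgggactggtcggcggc
HSPB1: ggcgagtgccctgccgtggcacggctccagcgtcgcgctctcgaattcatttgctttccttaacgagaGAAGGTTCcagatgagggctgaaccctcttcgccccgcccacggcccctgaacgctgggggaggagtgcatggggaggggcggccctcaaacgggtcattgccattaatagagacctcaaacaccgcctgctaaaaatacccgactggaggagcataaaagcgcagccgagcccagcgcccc

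The HSP90AA1 and DNAJB1 stretches lie inside the span that RefSeq gives these genes, since longer transcripts start farther upstream, and the HSPB1 stretch lies directly before the gene. The matches with 3 blocks of HSPA8, HSP90AB1, HSPD1 and DNAJA1 are given with the place of their first base relative to the start site. Their likeness follows from the search, which asked for these letters.
HSPA8, 230 bases before the start: GAAAGTTCCAGAA
HSPA8, 55 bases before the start: TTCTGGAAGGTTC
HSP90AB1, 165 bases before the start: TTCTGGAAGATTC
HSP90AB1, 112 bases before the start: TTCTGGAAGCTTC
HSPD1, 245 bases before the start: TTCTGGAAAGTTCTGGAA
DNAJA1, just after the start: GAACTTTCCAGAA

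The HSPD1 match overlaps 2 forms and so spans more bases than the others. HSPD1 and HSPE1, which encode HSP60 and its partner HSP10, are neighbours on chromosome 2 in opposite orientation, with annotated starts as close as 105 bases. Their nearest windows overlap by 204 bases, and neither holds a match with 2 or 3 blocks. The HSPD1 match above comes from its other start.

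The labelled lineage was checked against marker genes. Of 9 B cell precursor marker genes with a single-symbol probe set, 7 were above the floor on all 6 arrays of SEM-K2 and 9 on all 6 arrays of RS4:11, and DNTT and BLNK were the ones missing from that count in SEM-K2. On all arrays of each line, 1 of 6 myeloid markers (CSF1R), 1 of 6 T and NK markers (NKG7), 1 of 4 erythroid and megakaryocyte markers (ITGA2B) and 2 of 7 fibroblast and epithelial markers (COL1A1 and KRT8) exceeded the floor. The second replicate of SEM-K2 at 3xEC50 stood apart in RNA quality. For its ACTB control probe sets, the 3′ one exceeded the 5′ one by 1.97 on the log2 scale, against 0.87 to 1.23 on the other 11 arrays, and for those of GAPDH by 0.61, against 0.08 to 0.30. At a control probe set of 18S ribosomal RNA a different array stood apart. The first vehicle replicate of RS4:11 was 9.85 there, against 5.20 to 6.98 on the other 11 arrays. It is 1 of the 2 vehicle arrays behind each RS4:11 change against vehicle.

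The first question was whether 6 h of obatoclax moved the heat shock transcripts within a line. No tested gene passed in any such comparison. At 3xEC50 in SEM-K2, 0 of the 8 genes passed an adjusted p of 0.05 in limma's moderated test, where 0.824% of all genes tested did, and 1 of 8 had an unadjusted p under 0.05, where 11.7% of all genes did. At EC50 in SEM-K2 none passed (0 of 8, against 0.17% of all genes), and 0 had an unadjusted p under 0.05, against 5.47%. In RS4:11 the count was 0 of 8 at 3xEC50 and 0 of 8 at EC50, where 0% of all genes were called at either dose. There 0 of the 8 had an unadjusted p under 0.05 at either dose, against 4.9% of all genes at 3xEC50 and 4.2% at EC50. When the replicate number entered as a block the count was again 0 of 8 in each of the 4, against 2.08% of all genes at 3xEC50 and 0.436% at EC50 in SEM-K2 and 0% at both doses in RS4:11.

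HSPH1 encodes HSP110 (probe set 206976_s_at), a nucleotide exchange factor of HSP70. In SEM-K2 it was 11.49 with vehicle in replicate 1 and 0.51 higher in replicate 2, 11.55 and 11.87 at EC50, and 11.44 and 11.70 at 3xEC50 (log2 values, replicates 1 and 2). In RS4:11 it was 12.40 and 12.18 with vehicle, 12.17 and 12.07 at EC50, and 12.10 and 12.29 at 3xEC50. Treated and vehicle arrays overlapped in SEM-K2 at both doses and in RS4:11 at 3xEC50, and only at EC50 in RS4:11 did both treated arrays lie below both vehicle arrays, as they also did for DNAJA1, HSPB1 and HSPD1, 4 of 8 genes, against 12.9% of all genes. At 3xEC50 the log2 change was -0.18 ± 0.21 (SE) in SEM-K2 and -0.10 ± 0.21 in RS4:11.

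The J domain genes were DNAJA1 and DNAJB1, whose products are HSP40 partners of cytosolic HSP70. DNAJA1 (200881_s_at) lay within a narrow band, with 12.96 to 13.32 over the 6 SEM-K2 arrays and 13.12 to 13.33 over the 6 RS4:11 arrays, and its 4 changes against vehicle lay between -0.10 and -0.05. DNAJB1 is among the genes that respond most sharply to HSF1 in human cells. In SEM-K2 DNAJB1 (200666_s_at) was 9.81 and 9.62 with vehicle, 9.76 and 10.05 at EC50, and 9.75 and 10.22 at 3xEC50. The difference from vehicle at 3xEC50 was -0.06 in replicate 1 and 0.60 in replicate 2, and the groups overlapped. That second replicate is the array that stood apart in RNA quality, and without it the change was 0.04. With all arrays the change at 3xEC50 was 0.27 ± 0.23 (adjusted p = 0.717 in limma), the only positive one among the 8 genes in that comparison. In RS4:11 DNAJB1 was 10.69 and 10.68 with vehicle, 10.35 and 10.84 at EC50, and 10.37 and 10.76 at 3xEC50, with vehicle arrays between the treated ones at both doses. The other DNAJB1 probe set, 200664_s_at, was 9.17 and 8.96 with vehicle in SEM-K2. It was 9.30 and 9.51 at EC50 and 9.31 and 8.93 at 3xEC50, so the rise in replicate 2 at 3xEC50 was not seen there. Its changes in SEM-K2 were 0.34 at EC50 and 0.06 at 3xEC50, and neither passed.

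HSP90AA1 and HSP90AB1 encode the inducible and the constitutive cytosolic HSP90. HSP90AA1 (214328_s_at) was close to constant, with 15.02 to 15.29 over the SEM-K2 arrays and 15.10 to 15.23 over the RS4:11 arrays. Its changes against vehicle ran from -0.04 to 0.01, with a standard error of 0.15. HSP90AB1 (200064_at) in SEM-K2 was 13.75 and 14.15 with vehicle, 13.67 and 13.92 at EC50, and 13.62 and 14.18 at 3xEC50. In RS4:11 it was 14.01 and 14.31 with vehicle, 13.95 and 14.28 at EC50, and 13.81 and 14.12 at 3xEC50. In all 6 groups replicate 2 was the higher array, and treated and vehicle arrays overlapped in both lines at both doses.

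HSPB1 encodes HSP27, a small heat shock protein that holds unfolded proteins and binds actin. It had the largest change among the probe sets used for the 8 genes. In SEM-K2 HSPB1 (201841_s_at) was 13.11 and 12.82 with vehicle, 12.75 and 12.77 at EC50, and 12.69 and 11.88 at 3xEC50. All 4 treated arrays lay below both vehicle arrays, as they did for 5.98% of all genes. The change at 3xEC50 was -0.68 ± 0.24, a ratio of 0.625 with a 95% interval of 0.433 to 0.903, and did not pass the test (unadjusted p = 0.0177, adjusted p = 0.309 in limma). Within replicate 1 the change was -0.42 and within replicate 2 it was -0.94. The lowest array was the second replicate, the one with the high 3′ to 5′ differences, and without it the change was -0.27. The part of RNA quality in the difference was not tested beyond that. Without replicate 1, which leaves that array alone in its group and assumes that it varies like the others, the change was -1.08 with an adjusted p of 0.0296 in limma. In RS4:11 HSPB1 was 14.41 and 14.32 with vehicle, 14.26 and 14.14 at EC50, and 14.27 and 14.22 at 3xEC50. The treated arrays again lay below the vehicle arrays, as for 8.3% of all genes, but by 0.17 at EC50 and 0.12 at 3xEC50 with a standard error of 0.24.

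HSPD1 and HSPE1, the mitochondrial pair, had small differences from vehicle at the probe set used for each. HSPD1 (200807_s_at) in RS4:11 was 14.86 and 15.01 with vehicle, 14.77 and 14.82 at EC50, and 14.70 and 14.80 at 3xEC50, so all 4 treated arrays lay below both vehicle arrays, as for 8.3% of all genes. The changes were -0.14 ± 0.16 at EC50 and -0.18 ± 0.16 at 3xEC50, and neither passed (adjusted p = 1.00 for both in limma). In SEM-K2 HSPD1 was 14.77 and 15.01 with vehicle, 14.70 and 14.87 at EC50, and 14.65 and 14.93 at 3xEC50, where the groups overlapped. HSPE1 (205133_s_at) ran from 12.91 to 13.43 in SEM-K2 and from 13.25 to 13.37 in RS4:11, with overlap of treated and vehicle arrays at both doses in both lines. BAG3, a cochaperone that links HSP70 to autophagy and is a target of HSF1, was between 2.57 and 2.69 on all 12 arrays (217911_s_at), below the floor with and without obatoclax.

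**Figure D1:**
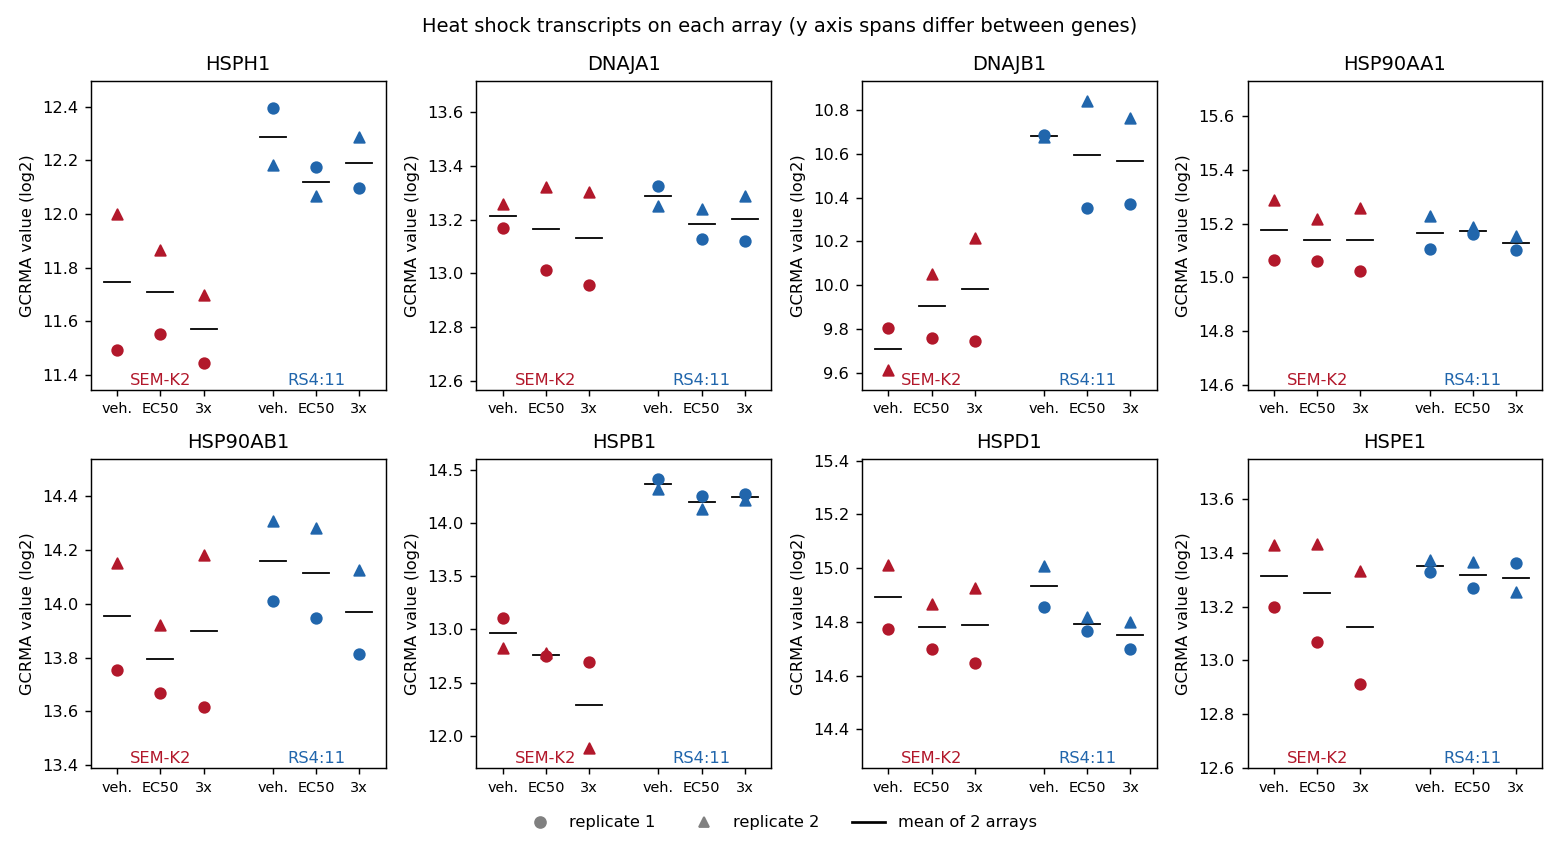
Log2 values of the 8 tested heat shock genes on each of the 12 arrays, by line (SEM-K2 red, RS4:11 blue) and treatment (vehicle, EC50 and 3xEC50), with circles for replicate 1, triangles for replicate 2 and a line at the mean of 2. The y axis spans differ between genes. HSPB1, DNAJB1 and HSPH1 separate the lines, and HSPB1 on the second SEM-K2 array at 3xEC50 is the lowest HSPB1 value at 11.88.

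Although no gene passed, most estimates lay on the same side of 0. At 3xEC50 in SEM-K2, 7 of 8 changes were below 0 with a median of -0.09, while 41.4% of all genes were below 0 and their median was 0.06. At EC50 in SEM-K2 it was 7 of 8 with a median of -0.05, against 38.1% and 0.05 for all genes. In RS4:11 it was 8 of 8 with a median of -0.11 at 3xEC50, against 46.0% and 0.02, and 7 of 8 with a median of -0.09 at EC50, against 44.3% and 0.02. These counts share the vehicle arrays of a line, so both doses lean on the same 2 arrays. In SEM-K2 the median changed sign when single treated arrays were left out. It was -0.27 without the second array at 3xEC50 and 0.06 without the first, and at EC50 it was -0.20 without the second array and 0.08 without the first. Each of these values sets the remaining treated array against both vehicle arrays, so it includes the difference between replicates. The RS4:11 median was -0.18 to -0.02 at 3xEC50 and -0.14 to -0.02 at EC50 over all alternatives. Taken within each replicate number, most of the 8 changes were below 0 in every comparison, though not always for the same genes. The change was below 0 in both replicates for 5 of 8 genes at 3xEC50 and 4 of 8 at EC50 in SEM-K2, and for 4 of 8 and 6 of 8 in RS4:11. At the probe set used for each gene, none of the 8 was above vehicle in both replicates in any comparison. The shares of all genes below or above vehicle in both replicates were not computed, so these counts have no background.

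The intervals limit how large a rise of these 8 genes, at the probe set used for each, could have gone unseen. HSPA8 and BAG3 have no interval. In each of the 4 comparisons the 95% interval of all 8 genes lay below a 2-fold rise. The widest upper bound belonged to DNAJB1 in SEM-K2, at 1.73-fold for 3xEC50 and 1.64-fold for EC50, and in RS4:11 no upper bound exceeded 1.33-fold at 3xEC50 or 1.42-fold at EC50. For HSP90AA1 at 3xEC50 in SEM-K2 the ratio was 0.976 with an interval of 0.772 to 1.23. The intervals cover the spread between arrays, come from the fit without the replicate block and are not adjusted over genes. They say nothing about other exposure times or other heat shock genes.

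**Figure D2:**
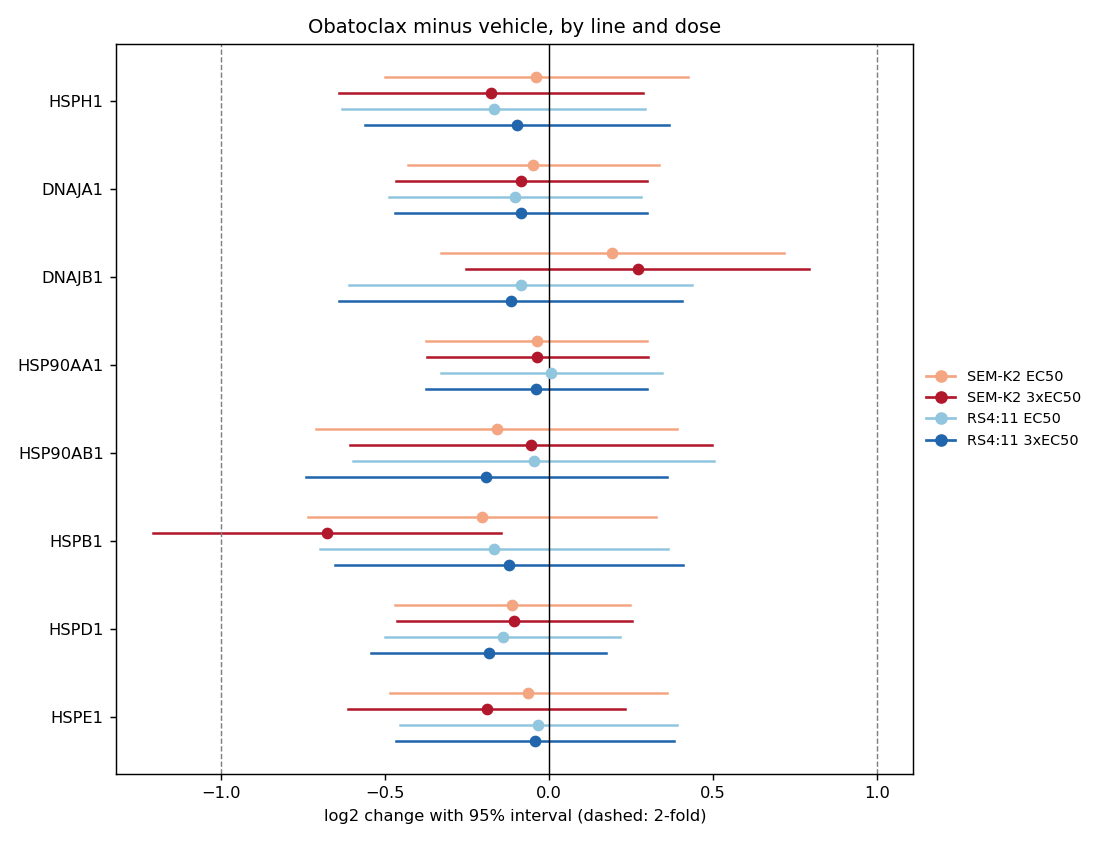
Log2 change of each tested heat shock gene, obatoclax minus vehicle, with its 95% interval, for SEM-K2 (EC50 light red, 3xEC50 dark red) and RS4:11 (EC50 light blue, 3xEC50 dark blue). Dashed lines mark 2-fold. HSPB1 in SEM-K2 at 3xEC50 is the only gene whose interval leaves out 0, and no interval reaches a 2-fold rise.

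Neither the step between doses nor the difference between the responses of the lines singled out a gene. Between 3xEC50 and EC50, 0 of 8 genes were called in SEM-K2 and 0 of 8 in RS4:11, where 0% of all genes were called in either line, and 0 had an unadjusted p under 0.05, against 2.22% and 0.805% of all genes. With all arrays the largest step was that of HSPB1 in SEM-K2, at -0.47 ± 0.24. Without the second SEM-K2 array at 3xEC50, the one apart in RNA quality, that step was -0.07, and without the first it was -0.88. With the mean of both doses against vehicle, 0 of 8 were called in SEM-K2, against 0.748% of all genes, and 0 of 8 in RS4:11, against 0%, and again 0 had an unadjusted p under 0.05 in limma, against 10.2% and 5.93%. The response of SEM-K2 minus that of RS4:11 was called for 0 of 8 genes at 3xEC50 (0.0379% of all genes), 0 of 8 at EC50 (0.00947%) and 0 of 8 for the mean of doses (0.0663%), with 0 at an unadjusted p under 0.05, against 3.69%, 1.75% and 2.81%. The count stayed at 0 of 8 in all 7 comparisons when the replicate block was added. The block called 0% of all genes between doses in either line, 2.09% in SEM-K2 and 0.161% in RS4:11 for the mean of doses, and 0.0473%, 0.00947% and 0.0473% for the differences between the responses. The differences between the responses at 3xEC50 that lay farthest from 0 were -0.56 ± 0.33 for HSPB1 and 0.39 ± 0.33 for DNAJB1. They were -0.15 and 0.15 without that second array, and -0.96 and 0.62 without the first.

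The lines themselves differed. With vehicle, HSPB1 and DNAJB1 were lower in SEM-K2 than in RS4:11, and 2 of 8 genes were called, where 19.6% of all genes were (26.8% with the replicate block, and the same 2 genes). HSPB1 averaged 12.97 ± 0.20 in SEM-K2 and 14.37 ± 0.07 in RS4:11 (SD, n = 2 each), a difference of -1.40 ± 0.24 (SE), which is 2.64-fold lower (adjusted p = 0.00240 in limma). DNAJB1 averaged 9.71 ± 0.14 in SEM-K2 and 10.68 ± 0.01 in RS4:11, a difference of -0.97 ± 0.23, which is 1.96-fold lower (adjusted p = 0.0160 in limma). This second call was lost without the filter on low values, which enlarges the family of tests (adjusted p = 0.0522), and without SEM-K2 vehicle replicate 2 (0.0918), RS4:11 vehicle replicate 1 (0.0678) or RS4:11 vehicle replicate 2 (0.0719). HSPH1 had a difference of -0.54 ± 0.21 with an adjusted p of 0.104, and of 0.0407 without SEM-K2 vehicle replicate 2. It also passed with a replicate block within each line (adjusted p = 0.0245), which made 3 of 8 called. The other 5 genes differed by -0.21 to 0.01.

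The same comparison was then made in the treated cells, where HSPB1 was again called. At 3xEC50 HSPB1 averaged 12.29 ± 0.57 in SEM-K2 and 14.24 ± 0.04 in RS4:11, a difference of -1.96 ± 0.24 (adjusted p = 2.73e-04 in limma), the 1 gene of 8 called, against 22.5% of all genes. With the replicate block 3 of 8 were called, against 31.6% of all genes, since HSPH1 (-0.62, adjusted p = 0.0306) and DNAJB1 (-0.58, adjusted p = 0.0414) passed. At EC50 the HSPB1 difference was -1.44 ± 0.24 (adjusted p = 0.00197 in limma), again 1 of 8, against 20.9% of all genes, and with the block DNAJB1 passed as well (-0.69, adjusted p = 0.0216), 2 of 8 against 28.7%.

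Over the mean of the 3 treatments 3 of 8 genes were called, all lower in SEM-K2, where 41.1% of all genes were called and 17.8% were called lower. HSPB1 differed by -1.60 ± 0.14, a level 3.03-fold lower (adjusted p = 1.10e-05 in limma). DNAJB1 differed by -0.75 ± 0.13, 1.68-fold lower (adjusted p = 0.00160), and HSPH1 by -0.52 ± 0.12, 1.44-fold lower (adjusted p = 0.00597). For these 3 genes all 6 SEM-K2 arrays lay below all 6 RS4:11 arrays, as for 12.8% of all genes. HSPB1 ran from 11.88 to 13.11 with a median of 12.76 in SEM-K2, and from 14.14 to 14.41 with a median of 14.27 in RS4:11. HSP90AB1 differed by -0.20 and did not pass (adjusted p = 0.295 in limma). It was called with the replicate block (adjusted p = 0.0488) and with the mean of its probe sets (-0.29, adjusted p = 0.0479), and the block made 4 of 8 called, against 49.6% of all genes.

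For the remaining genes, at the probe set used for each, the intervals around the difference between the lines were narrow. The difference was -0.00 for HSP90AA1, with a 95% interval of -0.20 to 0.19, and -0.00 for HSPD1, with an interval of -0.21 to 0.20. It was -0.06 for DNAJA1 (-0.28 to 0.17) and -0.10 for HSPE1 (-0.34 to 0.15). These intervals do not cover other probe sets of the same genes. The other HSP90AA1 probe sets gave -0.25 (211969_at), -0.09 (211968_s_at) and -0.02 (210211_s_at). Other HSPD1 probe sets past the filter gave -0.36 (241716_at), -0.07 (200806_s_at) and 0.15 (243372_at), and the other DNAJA1 probe set, 200880_at, gave 0.11.

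**Figure D3:**
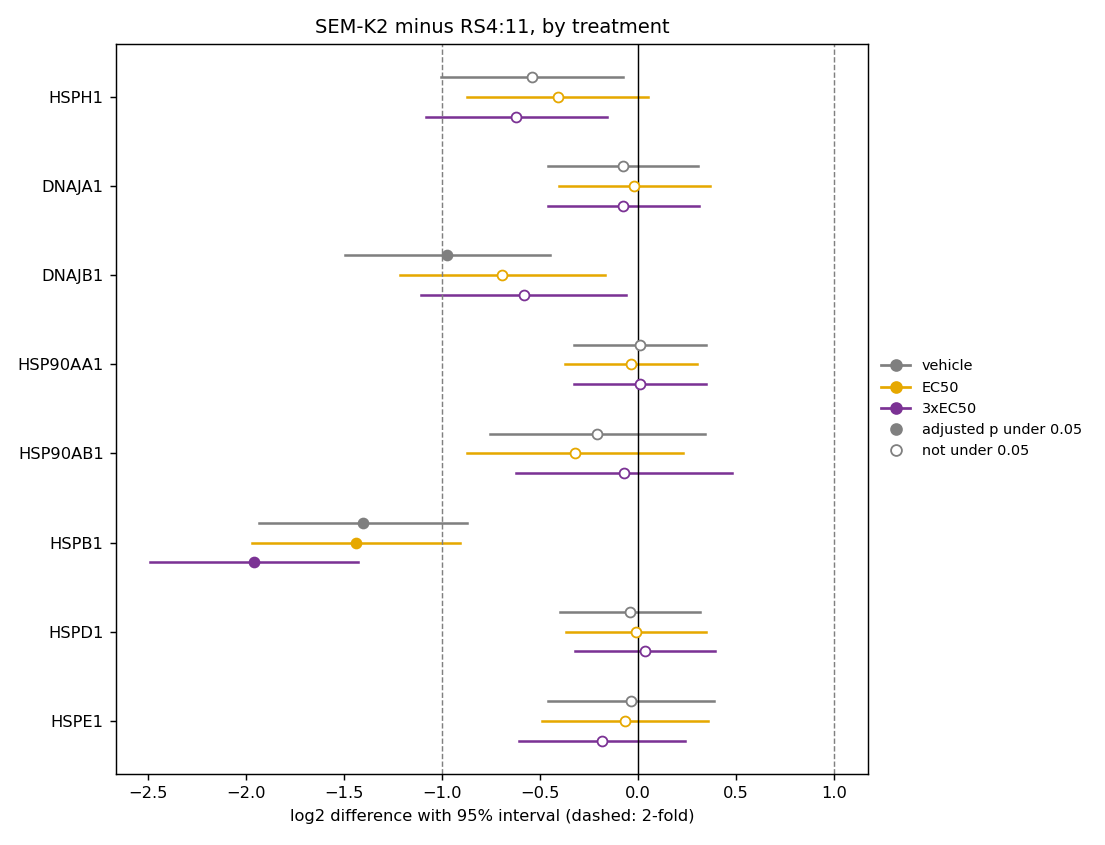
Log2 difference of each tested heat shock gene, SEM-K2 minus RS4:11, with its 95% interval, in vehicle (grey), EC50 (yellow) and 3xEC50 (purple). Filled circles passed an adjusted p of 0.05 in limma and dashed lines mark 2-fold. HSPB1 is filled in all 3 treatments, from -1.40 to -1.96, and DNAJB1 in vehicle.

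For several genes the 2 replicates of a group lay farther apart than the treated and vehicle means. HSP90AB1 was higher in replicate 2 than in replicate 1 in 6 of 6 groups, by 0.36 ± 0.07 on average (adjusted p = 0.0197 in limma), the 1 gene of 8 called, where 12.3% of all genes were. HSP90AA1 was higher by 0.14 ± 0.07 and HSPD1 by 0.17 ± 0.07, in 6 of 6 groups each, as were 8.72% of all genes, but neither passed (adjusted p = 0.213 and 0.141). HSPB1 went the other way in 5 of 6 groups, with a mean of -0.22 ± 0.11. In SEM-K2 the mean difference between replicates exceeded the mean change with obatoclax for 6 of the 8 genes, all but DNAJB1 and HSPB1. The same held in RS4:11 for 3 of the 8, DNAJB1, HSP90AA1 and HSP90AB1. The shares of all genes for which this held were not computed, so these counts are not particular to the heat shock genes. The labels do not say what a replicate number stands for.

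**Figure D4:**
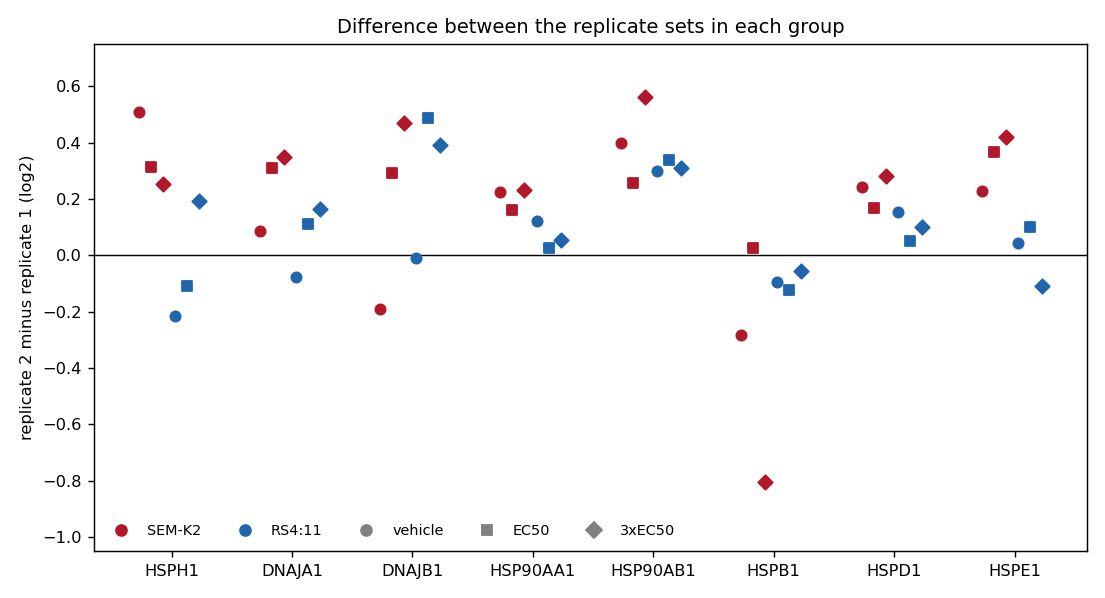
Log2 difference, replicate 2 minus replicate 1, of each tested heat shock gene in each of the 6 groups, by line (SEM-K2 red, RS4:11 blue) and treatment (circles vehicle, squares EC50, diamonds 3xEC50). HSP90AA1, HSP90AB1 and HSPD1 are above 0 in all 6 groups, and the lowest point is HSPB1 in SEM-K2 at 3xEC50, at -0.81.

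Over the 12 arrays centred within their line, 6 of the genes followed each other. As a description, the Pearson correlation of a gene with the mean of the other 7 was 0.900 for DNAJA1, 0.861 for HSPD1, 0.788 for HSPE1, 0.772 for HSP90AA1, 0.699 for HSP90AB1 and 0.678 for HSPH1. It was 0.222 for DNAJB1 and -0.362 for HSPB1. The genes outside the set with the most similar pattern were SLC19A1, which encodes the reduced folate carrier (0.956), POLR3G, a subunit of RNA polymerase III (0.951), MTREX, the RNA helicase that serves the nuclear exosome (0.949), SLC35B4, a nucleotide sugar transporter (0.947), and PUM3 (0.944). All 5 were higher in replicate 2 in 6 of 6 groups, so the pattern they share with the heat shock genes includes the replicate number.

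Other probe sets of the same genes were then read one by one. Of the single-symbol probe sets of the members, 20 passed the filter, and 0 of 20 were called in each of the 4 treatment comparisons. Of all 20331 probe sets, 0.393% were called in SEM-K2 at 3xEC50, 0.0787% at EC50, and 0.0197% and 0.0148% in RS4:11 at 3xEC50 and EC50. At an unadjusted p under 0.05 the counts in the same order were 3, 1, 1 and 2 of 20, against 10.7%, 4.94%, 4.6% and 4.12% of all probe sets, and with the replicate block 0 were called. Below 0 were 16 and 17 of 20 in SEM-K2 at 3xEC50 and EC50, and 20 and 17 of 20 in RS4:11, where 48.6%, 43.3%, 49.6% and 48.7% of all probe sets were below 0.

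Another probe set of HSPH1, 235573_at, gave a larger change than the one used for the gene. It was 7.37 and 7.81 with vehicle, 6.90 and 7.22 at EC50, and 6.66 and 7.09 at 3xEC50 in SEM-K2. In RS4:11 it was 7.61 and 7.89 with vehicle, 7.06 and 7.18 at EC50, and 7.06 and 7.29 at 3xEC50. All 4 treated arrays of each line lay below both of its vehicle arrays, as for 7.94% of all probe sets in SEM-K2 and 9.02% in RS4:11. The changes were -0.71 ± 0.23 and -0.57 ± 0.23 at 3xEC50 in SEM-K2 and RS4:11, with adjusted p-values of 0.312 and 1.00 in limma. The other HSPH1 probe sets differed from vehicle by -0.34 to -0.04 in the 4 comparisons. A probe set of HSPD1, 241716_at, also lay lower on all 4 treated arrays of each line. In SEM-K2 it was 8.20 and 8.28 with vehicle, 7.68 and 7.73 at EC50, and 7.67 and 4.24 at 3xEC50. The RS4:11 arrays read 9.04 and 8.27 with vehicle, 6.74 and 6.60 at EC50, and 7.59 and 7.72 at 3xEC50. In RS4:11 the changes were -1.99 ± 0.84 at EC50 and -0.999 ± 0.84 at 3xEC50, and neither passed (adjusted p = 1.00 for both in limma). The 9.04 there comes from the vehicle array with the high 18S ribosomal RNA signal, whose part in these changes was not tested. At this probe set the SEM-K2 changes were -0.54 at EC50 and -2.29 at 3xEC50, and neither was called. The 4.24 in SEM-K2 comes from the array apart in RNA quality, and the part of RNA quality in that value was not tested.

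In vehicle 4 of the 20 probe sets were called between the lines, against 15.3% of all probe sets, and they belonged to HSPB1, DNAJB1 and HSPH1. HSPB1 had 1 single-symbol probe set, so its difference could not be read from another. The second DNAJB1 probe set, 200664_s_at, differed by -1.24 on the log2 scale in vehicle, SEM-K2 minus RS4:11 (adjusted p = 0.00365 in limma over all probe sets). HSPH1 at 208744_x_at differed by -0.92 (adjusted p = 0.0423), whereas HSPH1 at 235573_at differed by -0.16.

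**Figure D5:**
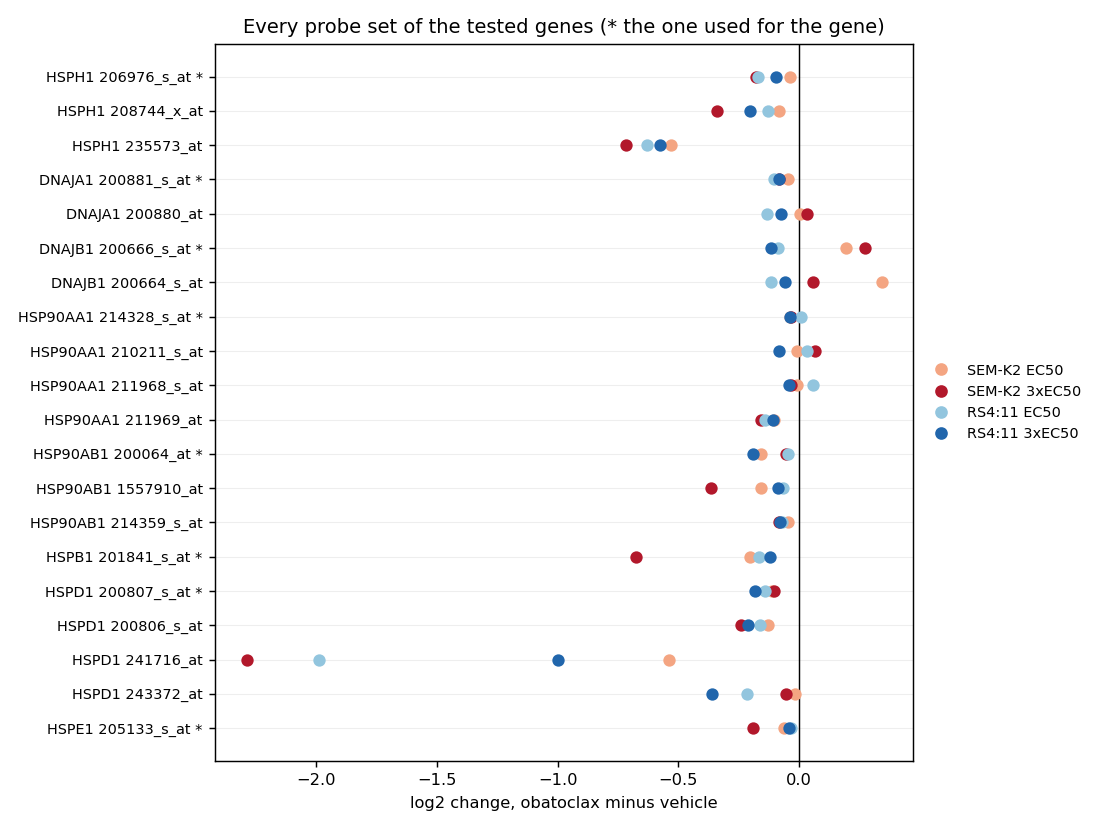
Log2 change, obatoclax minus vehicle, at each of the 20 single-symbol probe sets of the tested heat shock genes, for SEM-K2 (EC50 light red, 3xEC50 dark red) and RS4:11 (EC50 light blue, 3xEC50 dark blue). Asterisks mark the probe set used for the gene. Most points lie between -0.40 and 0.40, and those of HSPH1 235573_at and HSPD1 241716_at lie lower in all 4 comparisons.

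The wider chaperone network was read from 79 further genes in 8 lists, of which 60 were tested. In SEM-K2 at 3xEC50 1 of 60 was called, and in SEM-K2 at EC50 and in RS4:11 at both doses 0 of 60 were called, where the shares of all genes were 0.824%, 0.17%, 0% and 0%. The counts were the same with the replicate block, which called 2.08%, 0.436%, 0% and 0% of all genes. The called gene was DNAJB5, a J domain protein of the HSP40 family. It was 2.99 and 3.39 with vehicle, 3.56 and 3.69 at EC50, and 4.18 and 4.24 at 3xEC50 in SEM-K2, where only the 2 arrays at 3xEC50 exceeded the floor. The change was 1.02 ± 0.18 (adjusted p = 0.0398 in limma), but most of it lay below the floor. The mean of the 2 arrays at 3xEC50 was 1.16-fold above the floor. DNAJB5 passed the filter only through this group, and 14 of 19 alternative settings lost the call (adjusted p up to 0.236). In RS4:11 it ran from 3.06 to 3.46, and the difference between the responses of the lines did not pass (0.95 ± 0.25, adjusted p = 0.793 in limma).

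The median of the 60 genes was -0.04 in SEM-K2 and -0.07 in RS4:11 at 3xEC50, with 35 and 40 genes below 0, and 0.00 and -0.04 at EC50, with 30 and 36 below 0. The mitochondrial chaperones and proteases had 9 of 12 genes below 0 in SEM-K2 and 11 of 12 in RS4:11 at 3xEC50, with medians of -0.13 and -0.15, where 41.4% and 46.0% of all genes were below 0. At EC50 it was 7 of 12 in SEM-K2 and 10 of 12 in RS4:11, with medians of -0.01 and -0.14, against 38.1% and 44.3%. HSPA9, the matrix HSP70 known as mortalin, had the smallest p-value of that list in both lines. In SEM-K2 HSPA9 was 11.62 and 12.06 with vehicle, 11.42 and 11.75 at EC50, and 11.26 and 11.38 at 3xEC50. In RS4:11 it was 11.84 and 11.91 with vehicle, 11.28 and 11.47 at EC50, and 11.29 and 11.38 at 3xEC50, all 4 treated arrays below both vehicle arrays, as for 8.3% of all genes. Over the mean of doses it differed from vehicle by -0.38 ± 0.16 in SEM-K2 and -0.52 ± 0.16 in RS4:11, and neither passed (adjusted p = 0.467 and 0.559 in limma).

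In the other lists the smallest p-values belonged to genes that did not pass either. In SEM-K2 these were ST13, which encodes the HSP70 interacting protein Hip (0.35 ± 0.13 over the mean of doses, adjusted p = 0.366 in limma), HSPA2 (0.74 ± 0.58), HSPB7 (-0.75 ± 0.58), FKBP5, an HSP90 cochaperone (-0.20 ± 0.14), the prefoldin subunit gene PFDN2 (-0.15 ± 0.17) and HSBP1, whose product binds HSF1 (-0.12 ± 0.11). In RS4:11 they were DNAJC6 (-0.49 ± 0.16, adjusted p = 0.663 in limma), FKBP4 (-0.64 ± 0.43), BAG1 (-0.24 ± 0.14), HSPB7 (-0.22 ± 0.58), PFDN2 (-0.28 ± 0.17), HSPA4 (-0.12 ± 0.17) and HSF1 itself (-0.15 ± 0.19). In RS4:11 HSF1 was 9.28 and 9.59 with vehicle, 9.17 and 9.39 at EC50, and 9.19 and 9.40 at 3xEC50, with overlap at both doses.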

How the data were processed

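RNA of 12 samples was measured on arrays, and the authors made the deposited values with GCRMA (submitters' processing notes, no version named). That method models background from probe sequence and quantile-normalises the arrays, so a shift shared by all transcripts is not seen. No scale is stated, and the authors' values were taken to be log2 from their range of 0.64 to 16.22 and array medians between 3.13 and 3.16. The members and the lists were chosen with earlier results of these data known.

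Of 54675 probe sets, 41091 carried 1 gene symbol, 1801 carried several and were not named, and per gene the one with the highest mean was kept. Genes above 4 in at least 2 arrays were fitted in limma 3.58.1 (R 4.3.3; lmFit, eBayes) with 6 group means over all 12 arrays (6 residual and 3.27 prior degrees of freedom). The Benjamini-Hochberg adjustment ran over all genes within a comparison, with calls at an adjusted p under 0.05. After ±, SE or SD of 2 replicates is named where first used. Of 15 comparisons, 3 of the line comparisons, the difference between replicates and the test of each probe set were added after seeing the data. The text names all 10 genes, called genes of the related lists, otherwise the gene with the smallest p per list and line, and the 5 genes most alike in pattern. In 15 pairs of groups, deviations of arrays with the same replicate number correlated at 0.19 to 0.60. The number was therefore also entered as a block, from the data and not from the labels. The main fit, with its standard errors and intervals, did not pair the samples, and results with the block are named as such. The model was run on simulated data with independent noise and no replicate effect. That run checked only that the code returns planted changes, and it does not bear on the replicate pattern here. Scanner files were not used. Array values carry no depth, and the number of arrays limits the precision.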

Additional observations from a re-analysis of the deposited data

How the results depend on the processing

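Of 2464 values of single heat shock genes under the alternative settings, 2249 kept their side of the threshold and their direction, 4 lost a call, 20 gained one, 0 called values changed sign, and 191 changed sign with neither value called. Among 1344 values for obatoclax against vehicle or between doses, 1 was called, that of HSPB1 described above. The count of called genes in SEM-K2 at 3xEC50 was 0 to 1 when each array was left out in turn. Between the lines, with each array left out in turn, it was 1 to 2 in vehicle, 1 to 2 at EC50 and 1 to 2 at 3xEC50. At 3xEC50 the count between the lines was 3 with the replicate block, with the block within each line and with the mean of all probe sets of a gene, and 2 with the trend and robust settings. At EC50 it was 2 with each of those 4 settings and with arrays centred on their median. In vehicle it was 1 without the filter on low values and 3 with the block within each line. Over the mean of the 3 treatments it was 4 with the replicate block and with the mean of all probe sets. In the remaining comparisons the replicate block left the count of called genes as it was. HSPB1 was called between the lines in vehicle under all 20 alternatives, and HSPB1, DNAJB1 and HSPH1 over the mean of the 3 treatments under all 20. The cause of the other shifts was not tested. With 2 arrays a group, changes of single genes under the widths given in the report could go unseen. Larger ones could too, since calls used the adjusted p. The interval of HSPB1 in SEM-K2 at 3xEC50 left out 0, yet with all arrays the gene did not pass.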
